A study of Homo sapiens with 6 samples.

Results

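The genes described here fold proteins in the endoplasmic reticulum (ER), remove those that fail to fold, and sense their build-up. They were 41 genes listed by symbol and matched to the Ensembl identifiers of the deposited table, out of 20014 genes in all. Of the 41, 39 had a mean of at least 1 FPKM (fragments scaled by transcript length and library size) over the 6 libraries and were tested. The exceptions were DERL3 and ERN1. The measured cells were HaCaT, an immortalized human keratinocyte line with no further treatment. A lentiviral CRISPR guide was used to knock out STUB1 (3 libraries), and a control guide in the same vector served for comparison (3 libraries). STUB1 is an E3 ubiquitin ligase that binds HSP70 and HSP90 chaperones. Cells were sorted and grown into colonies that were screened for the STUB1 protein, and the labels do not say how many clones, cultures or RNA preparations the 3 libraries of a group came from. Tests therefore reflect variation among these libraries, which could be purely technical.

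Secreted and membrane proteins enter the ER through the SEC61 channel, where chaperones, lectins and disulfide isomerases help them fold. Chains that stay misfolded are recognised by their trimmed glycans, moved back across the membrane, ubiquitinated, pulled out by the ATPase VCP and degraded by the proteasome, a route called ER-associated degradation (ERAD). Sensors in the ER membrane, IRE1 (gene ERN1), PERK (EIF2AK3) and ATF6, respond to misfolded chains with the unfolded protein response, in which spliced XBP1 and cleaved ATF6 switch on many of the genes described here. Keratinocytes make large amounts of secreted and membrane proteins, among them laminins and desmosomal cadherins.

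Many promoters of this response carry short sequence elements. They are shown first because CALR, XBP1 and HYOU1, all higher in the knockout, carry them, so this choice rested on the results. OS9 and CREB3L2, also higher, had no match. A further 6 genes had a match to ERSE or ERSE-II, both spelled out next, but did not pass. The ER stress element (ERSE) is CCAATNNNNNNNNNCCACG, ERSE-II is ATTGGNCCACG, and the unfolded protein response element (UPRE) was searched as TGACGTGG, all on both strands. The windows ran from 250 bases before to 50 bases after each annotated start in the RefSeq promoter table of GRCh38.p14, which held 35 of the 41 genes. ERSE matched in 6 of these genes (CALR, CANX, CRELD2, ERO1B, PDIA6 and XBP1), against 0.0769% of 35116 windows of all genes and 0.14% of 12872 windows of tested genes. ERSE-II matched in 3 (HYOU1, HERPUD1 and SDF2L1), against 0.0541% of all windows and 0.109% of windows of tested genes. UPRE matched in HYOU1, TXNDC5 and VCP, against 0.729% and 0.831% of these windows. In HYOU1 the UPRE overlapped the more distant of its 2 ERSE-II matches. A gene counted if any of its windows matched (44 windows for the 35 genes), whereas the shares are of single windows. The genes were listed for this pathway, so the contrast is no test of them. A match is a description of the letters only, and binding was not measured. The table held no window for PDIA3, FKBP14, DERL1, DERL3, HM13 and UFD1.

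The 250 bases before the start are printed for CALR (chr19:12938359-12938608, plus strand), XBP1 (chr22:28800570-28800819, minus strand) and HYOU1 (chr11:119057206-119057455, minus strand), 5′ to 3′ along the gene, with the fixed letters of each match in capitals. The ERSE of CALR began 225 bases before the start and lay on the opposite strand, whereas that of XBP1 began 52 bases before it. The ERSE-II matches of HYOU1 began 185 and 79 bases before the start, both on the opposite strand.
CALR: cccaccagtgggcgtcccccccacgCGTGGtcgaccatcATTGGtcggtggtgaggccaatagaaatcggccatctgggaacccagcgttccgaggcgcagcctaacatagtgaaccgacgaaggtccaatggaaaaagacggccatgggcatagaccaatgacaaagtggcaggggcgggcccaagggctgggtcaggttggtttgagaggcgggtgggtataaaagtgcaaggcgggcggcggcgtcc
XBP1: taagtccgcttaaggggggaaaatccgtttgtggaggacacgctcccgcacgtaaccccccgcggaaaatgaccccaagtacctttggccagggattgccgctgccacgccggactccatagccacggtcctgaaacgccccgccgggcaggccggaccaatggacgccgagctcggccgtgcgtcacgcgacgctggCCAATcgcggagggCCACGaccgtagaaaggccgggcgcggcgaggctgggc
HYOU1: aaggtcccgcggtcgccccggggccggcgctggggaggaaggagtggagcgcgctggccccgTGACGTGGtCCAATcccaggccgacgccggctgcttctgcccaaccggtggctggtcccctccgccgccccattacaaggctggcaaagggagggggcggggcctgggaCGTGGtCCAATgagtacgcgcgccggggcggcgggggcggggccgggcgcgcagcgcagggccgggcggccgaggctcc

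For the 6 genes with an ERSE or ERSE-II match that did not pass the threshold, the match and up to 20 bases on each side are printed, since they carry the same letters with other expression values. These stretches were chr16:56932005-56932055 for HERPUD1 (plus strand), chr22:49918534-49918592 for CRELD2 (plus strand), chr22:21642094-21642144 for SDF2L1 (plus strand), chr2:10812833-10812891 for PDIA6 (minus strand), chr5:179698758-179698816 for CANX (plus strand) and chr1:236282163-236282208 for ERO1B (minus strand).
HERPUD1: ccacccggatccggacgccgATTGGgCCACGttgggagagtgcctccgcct
CRELD2: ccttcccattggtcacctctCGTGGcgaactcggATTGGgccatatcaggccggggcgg
SDF2L1: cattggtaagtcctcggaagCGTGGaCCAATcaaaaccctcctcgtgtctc
PDIA6: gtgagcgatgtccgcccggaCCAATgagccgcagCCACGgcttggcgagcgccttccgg
CANX: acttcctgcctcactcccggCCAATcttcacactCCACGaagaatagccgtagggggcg
ERO1B: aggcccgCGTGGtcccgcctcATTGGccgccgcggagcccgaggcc

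STUB1 itself had 21.6, 24.7 and 23.2 FPKM in the knockout libraries, against 37.8, 41.9 and 52.7 FPKM in the controls. The groups did not overlap, and the knockout mean was 52.5% of the control mean (log2 fold change -0.89, limma adjusted p = 0.00125), so the transcript was reduced but present. Each library had 11200 to 11292 genes at 1 FPKM or more. Library sizes estimated from the steps between low values were 45500000 to 52600000 reads. Control 3 stood apart from the others. Pearson's r across genes was 0.996 to 0.999 within the knockout, whereas control 3 had 0.988 and 0.986 with controls 1 and 2. Keratinocyte markers summed to 868 to 966 FPKM across knockout libraries and 695 to 797 FPKM across controls, without overlap. Of these markers, 6 of 7 were at 1 FPKM or more (KRT14 was the exception). None of 6 fibroblast markers reached 1 FPKM (sums of 0.442 to 0.562 FPKM across knockout libraries and 0.44 to 0.535 FPKM across controls, with DCN at 0). Of 5 melanocyte markers PMEL and MITF did (sums of 6.45 to 7.65 FPKM across knockout libraries and 6.74 to 7.39 FPKM across controls, with TYR at 0). Leukocyte markers summed to 22.6 to 25.4 FPKM across knockout libraries and 20.95 to 21.96 FPKM across controls, without overlap, and CD68 was the sole one at 1 FPKM or more. The part of marker levels in the results below was not tested.

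Among the 39 tested ER genes, 5 rose in the knockout (CALR, HYOU1, OS9, XBP1 and CREB3L2) and 3 fell (P4HB, DERL1 and NPLOC4), by limma on log2(FPKM + 1) with a Benjamini-Hochberg adjusted p under 0.05 over all 11262 tested genes. The remaining 31 did not pass. In bulk RNA, fewer cells that express a gene and less RNA per cell cannot be told apart. The called share of 20.5% was near the background, since 22.9% of all tested genes were called. By direction, 12.8% of the ER genes were higher against 9.58% of all genes, and 7.69% were lower against 13.3% of all genes. On the TPM scale the split was 1 higher and 3 lower among the ER genes, and 667 higher and 1622 lower among all genes, against 1079 and 1500 on the FPKM scale. Their log2 fold changes ran from -0.40 to 0.38 with a median of -0.02, beside a median of -0.01 over all tested genes. Of the 11262 tested genes, 41 were called with a change of at least 2-fold, and no ER gene was among them. The lowest knockout library lay above the highest control library for 9 of the ER genes (23.1%, against 20.4% of all tested genes), and the highest knockout library lay below the lowest control library for 11 (28.2%, against 25.3%). In the other 19 the libraries overlapped. An exact two-sided permutation test of 3 libraries against 3 cannot go below 0.1, so the calls rest on the variance shared over all genes by limma.

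**Figure D1:**
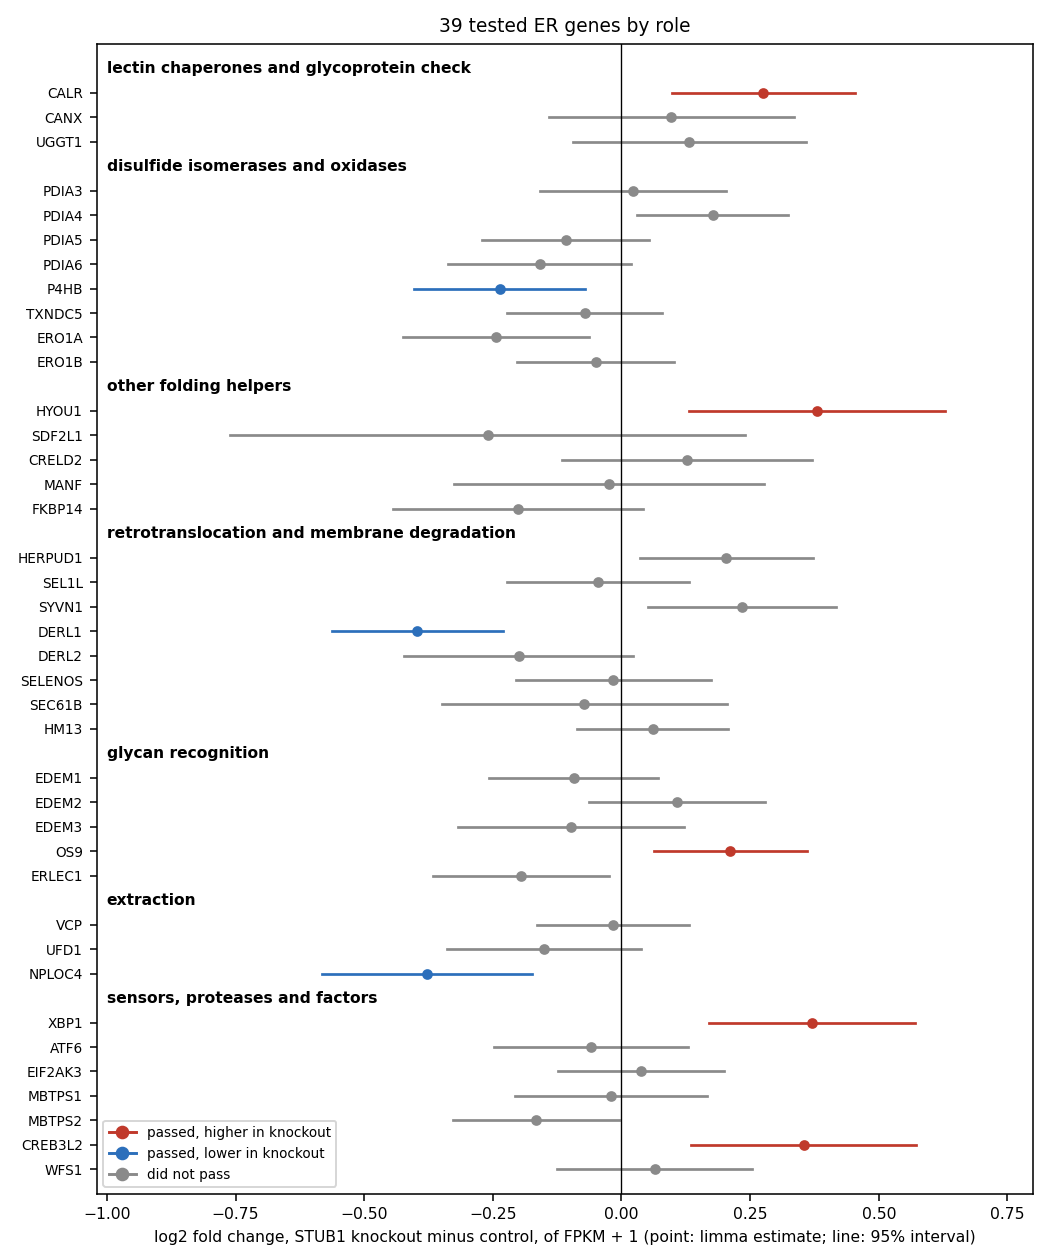
Log2 fold change of FPKM + 1 (STUB1 knockout minus control, horizontal axis) for the 39 tested ER genes, in blocks by role. Points are limma estimates from 3 libraries a group and lines their 95% intervals; 5 genes passed as higher (red), 3 as lower (blue), and the 31 grey genes did not pass.

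The summed level of the 41 genes was 1496 to 1529 FPKM in the knockout libraries and 1437 to 1526 FPKM in the controls, which is 0.334% to 0.358% and 0.343% to 0.353% of all FPKM in a library. CALR was the most abundant in both groups. It made up 19.7% to 21.9% of the summed level in knockout libraries and 17.7% to 17.9% in controls, so the ranges did not overlap. By role, summed levels did not overlap between the groups in 5 of 7 roles, which were not set against sums of other genes. Of all single tested genes, 20.4% were higher and 25.3% lower without overlap. Each sum follows its most abundant genes, among them CALR, OS9 and XBP1. The lectin genes summed to 416 to 446 FPKM across knockout libraries and 362 to 376 FPKM across controls. Glycan recognition summed to 79.1 to 79.5 FPKM across knockout libraries and 73.6 to 75.6 FPKM across controls, and the sensors, proteases and factors to 99.5 to 105 FPKM across knockout libraries and 85.6 to 90.8 FPKM across controls. Within glycan recognition OS9 was higher, whereas EDEM1 and ERLEC1 were lower in the knockout without overlap. Lower sums in the knockout were found for the disulfide group, at 441 to 463 FPKM across knockout libraries and 472 to 493 FPKM across controls, and for extraction, at 104 to 106 FPKM across knockout libraries and 112 to 119 FPKM across controls. PDIA3, SEC61B, CANX, TXNDC5 and PDIA6 followed CALR in the same order in both groups. The sensors stood near the bottom of the order: ATF6 averaged 5.57 FPKM in the knockout and 5.86 FPKM in the control, EIF2AK3 averaged 4.29 FPKM in the knockout and 4.16 FPKM in the control, and ERN1 was below 1 FPKM. These values are FPKM per gene, summed over isoforms, so the IRE1-dependent splicing of XBP1 cannot be read from them. TXNDC5 shares 60.6% of its exonic bases with the read-through gene BLOC1S5-TXNDC5, PDIA6 shares 25.2% with ATP6V1C2, and PDIA3 shares 14.8% with ELL3 and has pseudogene copies, so their levels are uncertain. CALR, P4HB, HYOU1 and OS9 share 270, 529, 666 and 699 exonic bases with annotated antisense genes.

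**Figure D2:**
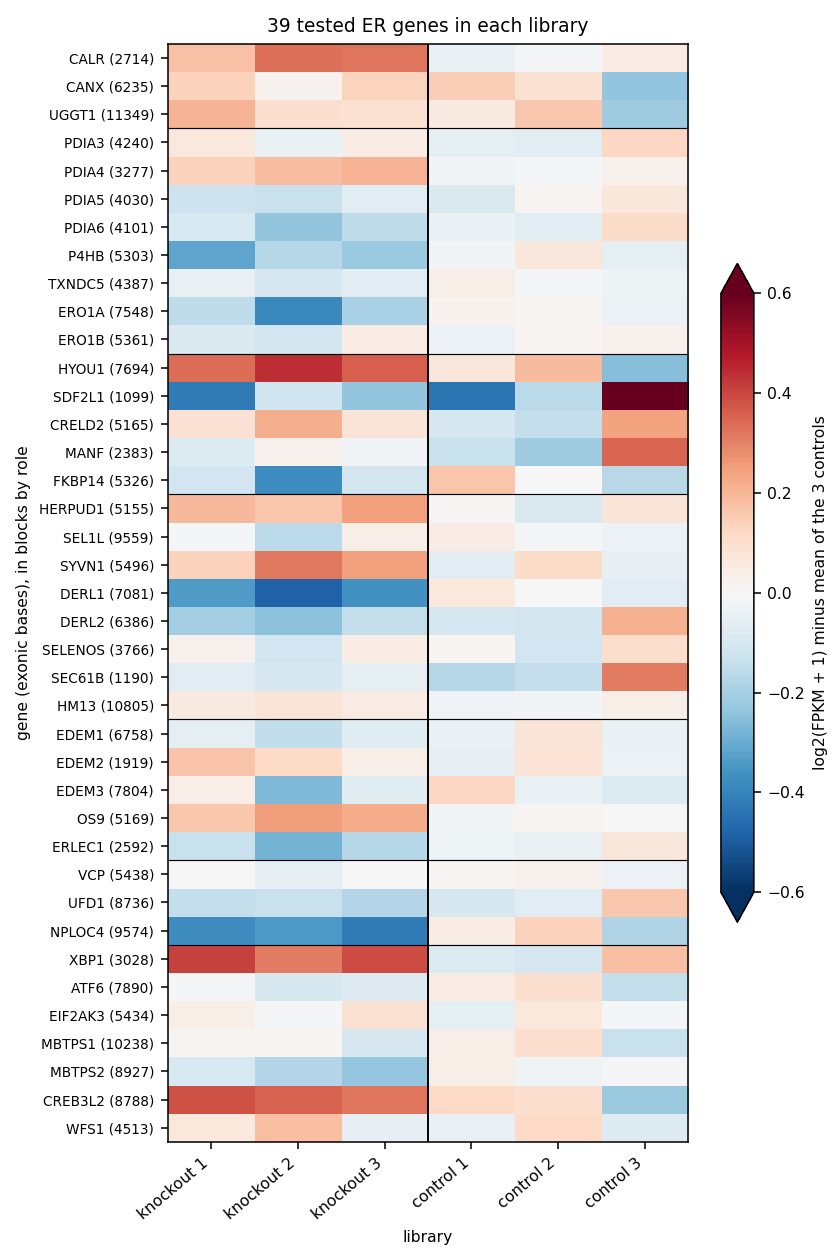
Difference of log2(FPKM + 1) from the mean of the 3 controls (colour, saturated at 0.6) for 39 tested ER genes (rows, exonic bases in brackets, blocks by role) in the 3 knockout libraries (left) and 3 controls (right). HYOU1, XBP1 and CREB3L2 are red in all 3 knockout libraries, DERL1 and NPLOC4 are blue, and control 3 stands out in SDF2L1, MANF and SEC61B.

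Of the lectin chaperones and their glycoprotein check, CALR rose and CANX and UGGT1 did not pass. Calreticulin (CALR, ENSG00000179218, chr19:12938578-12944489, plus strand, GRCh38) is a soluble calcium-binding lectin that holds freshly glycosylated chains. It had 295, 328 and 327 FPKM in the knockout libraries, against 254, 260 and 270 FPKM in the controls. All knockout libraries lay above all controls, and the means were 317 ± 18.7 and 261 ± 8.03 FPKM (SD, n = 3 each), 121% of control. The log2 fold change was 0.28 with a standard error of 0.08 (limma adjusted p = 0.0355). The call was lost when any of the 3 knockout libraries, control 1 or control 2 was left out (adjusted p = 0.0577 to 0.165, with log2 fold changes of 0.25 to 0.32) and on the TPM scale (0.0593). UGGT1, which re-glucosylates misfolded glycoproteins so that the lectins bind them again, had 15.2, 14.1 and 14.0 FPKM in the knockout and 13.6, 14.7 and 11.2 FPKM in the control. These libraries overlapped (log2 fold change 0.13, limma adjusted p = 0.362). The membrane-bound lectin CANX averaged 102 ± 4.62 FPKM in the knockout and 96.4 ± 13.5 FPKM in the control, with control 3 lowest at 81.0 FPKM.

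Of the 8 disulfide isomerases and oxidases, P4HB fell and the other 7 did not pass. P4HB (ENSG00000185624, chr17:81843159-81860694, minus strand) is the classic protein disulfide isomerase and a subunit of prolyl 4-hydroxylase. It had 41.7, 46.2 and 44.6 FPKM in the knockout libraries, against 51.7, 54.8 and 50.2 FPKM in the controls. No knockout library reached a control, and the mean was 84.6% of control (log2 fold change -0.24, standard error 0.07, limma adjusted p = 0.046). Leaving out any knockout library, control 1 or control 2 ended the call (adjusted p = 0.0804 to 0.166), as did centring the libraries on their medians (0.0597), and a correction for GC content and transcript length moved the log2 fold change to -0.37. ERO1A, the oxidase that recharges P4HB, came next, with 50.3, 42.6 and 48.8 FPKM in the knockout and 56.8, 56.4 and 54.7 FPKM in the control. Its groups did not overlap either, but it narrowly missed the threshold (log2 fold change -0.24, limma adjusted p = 0.0552), and without control 3 the adjusted p was 0.00626. The GC and length correction brought its log2 fold change to -0.116 (limma adjusted p = 0.0717). PDIA4, an isomerase with several thioredoxin domains, pointed the other way with 44.6, 46.2 and 46.8 FPKM in the knockout and 39.9, 40.2 and 41.1 FPKM in the control. It did not pass either (log2 fold change 0.18, limma adjusted p = 0.0784), and passed without control 3 (0.0138) and with the GC and length correction (0.0163). The remaining isomerases, PDIA3, PDIA5, PDIA6 and TXNDC5, and the oxidase ERO1B had log2 fold changes of -0.16 to 0.02.

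Among the 5 other folding helpers, HYOU1 rose. HYOU1 (ENSG00000149428, chr11:119044189-119057202, minus strand) is a large HSP70-like protein of the ER lumen that exchanges nucleotide on HSPA5, and it carries the 2 ERSE-II matches shown above. It had 36.4, 39.3 and 37.1 FPKM in the knockout libraries, against 30.1, 32.8 and 23.8 FPKM in the controls. The groups did not overlap, control 3 was the lowest library, and the knockout mean was 130% of control (log2 fold change 0.38, standard error 0.11, limma adjusted p = 0.0368). Leaving out control 3 gave a log2 fold change of 0.25 (limma adjusted p = 0.00457), and correcting for GC content and length gave 0.24 (0.0214). Leaving out any knockout library or control 1 ended the call (adjusted p = 0.0624 to 0.154), as did testing all genes without a filter on low values (0.0739) and the TPM scale (0.0613). FKBP14, a proline isomerase for collagens, had 8.07, 6.57 and 8.11 FPKM in the knockout and 10.02, 8.83 and 7.77 FPKM in the control. The libraries overlapped (log2 fold change -0.20, limma adjusted p = 0.203). It passed as lower without control 3 (log2 fold change -0.28, limma adjusted p = 0.0162), and the GC and length correction gave -0.0468.

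SDF2L1, MANF and CRELD2, ER-resident proteins whose genes are textbook targets of the unfolded protein response, did not pass, and their control libraries were spread widely. SDF2L1 had 11.6, 14.5 and 13.3 FPKM in the knockout and 11.4, 14.1 and 24.5 FPKM in the control, so that control 3 alone lay above the rest. MANF had 41.3, 44.6 and 43.4 FPKM in the knockout and 39.9, 37.7 and 56.1 FPKM in the control. CRELD2 had 11.4, 12.5 and 11.3 FPKM in the knockout and 9.87, 9.54 and 12.8 FPKM in the control. Without control 3, CRELD2 passed as higher (log2 fold change 0.25, limma adjusted p = 0.00952). SDF2L1 passed as lower with the GC and length correction and the replicate block (log2 fold change -0.34, limma adjusted p = 0.0402), whereas without control 3 its estimate was 0.0394 and did not pass (0.76). With that correction and control 3 left out, SDF2L1 passed as lower (log2 fold change -0.18, limma adjusted p = 0.0343). In the same fit CRELD2 and MANF passed as higher (log2 fold changes 0.19 and 0.15, limma adjusted p = 0.00951 and 0.0138).

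Control 3 differed from controls 1 and 2 with the length of these genes, though not in each of them. Across the 39 tested ER genes the difference between control 3 and the mean of controls 1 and 2, in log2(FPKM + 1), correlated with the log2 of exonic length at Pearson's r = -0.689, beside -0.499 across 11177 tested genes with a length, which are not independent replicates. For the 6 ER genes with under 3000 exonic bases the median difference was 0.29, and for the 33 longer ones it was -0.05. Among the called genes, control 3 was the lowest control for NPLOC4, CREB3L2, HYOU1, DERL1 and P4HB (9574, 8788, 7694, 7081 and 5303 exonic bases). It was the highest for the shorter XBP1 and CALR (3028 and 2714 exonic bases), and lay between the other controls for OS9 (5169 exonic bases). The part of library preparation in this difference was not tested.

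**Figure D3:**
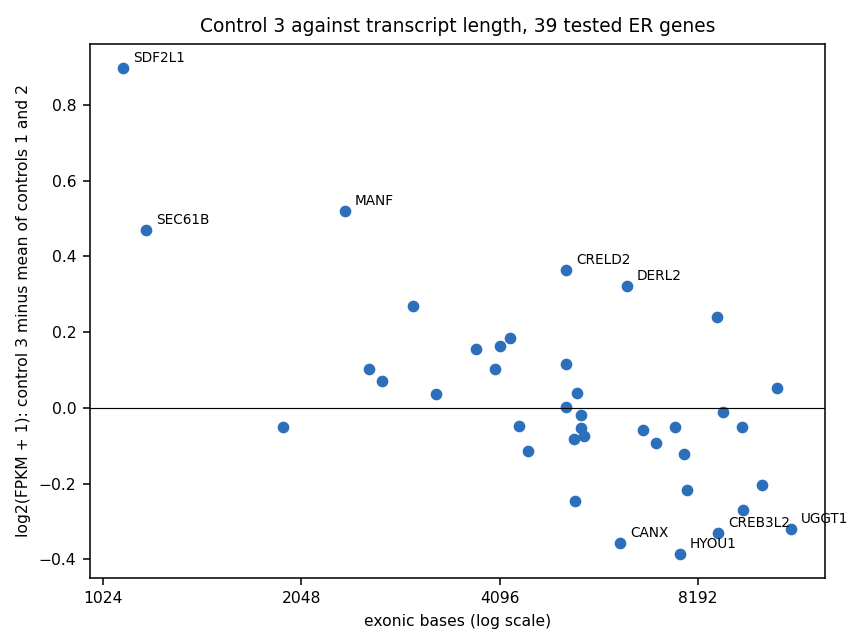
Control 3 minus the mean of controls 1 and 2 in log2(FPKM + 1) (vertical axis) against exonic bases (horizontal axis, log scale) for 39 tested ER genes, 1 point a gene. Points fall from the short SDF2L1, SEC61B and MANF to the long HYOU1, CREB3L2 and UGGT1 (r = -0.689).

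Of the 9 genes of retrotranslocation and membrane degradation, 8 were tested, and DERL1 fell while 7 did not pass. DERL1 (ENSG00000136986, chr8:123013164-123042423, minus strand) is a derlin, a rhomboid-like membrane protein of the retrotranslocation channel. It had 28.2, 25.4 and 27.7 FPKM in the knockout libraries, against 37.6, 36.0 and 34.4 FPKM in the controls. The groups were far apart relative to their spread, at means of 27.1 ± 1.5 and 36.0 ± 1.6 FPKM (SD, n = 3 each) or 75.3% of control. Its log2 fold change was -0.40 with a standard error of 0.07 (limma adjusted p = 0.00606). DERL1 was the only one of the 8 called genes that passed under all 18 alternatives, including each left-out library (adjusted p = 7.17e-05 to 0.0323). In the annotation it shares 396 exonic bases (5.59% of its own) with TBC1D31 on the opposite strand. Its relative DERL2 averaged 8.53 ± 0.354 FPKM in the knockout and 9.999 ± 1.47 FPKM in the control (log2 fold change -0.20, limma adjusted p = 0.17). DERL3 was hardly detected, with means of 0.02 FPKM in the knockout and 0.0263 FPKM in the control, which the depth estimate puts at 2.3 to 6.7 reads a library. It shares 2923 exonic bases (77.0% of its own) with SMARCB1 on the opposite strand, so its level is uncertain.

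SYVN1 (HRD1), the ubiquitin ligase at the centre of ERAD, had 16.4, 18.6 and 17.7 FPKM in the knockout and 14.1, 16.0 and 14.2 FPKM in the control. The libraries did not overlap, but the log2 fold change of 0.23 did not pass (limma adjusted p = 0.0662), and it passed with the replicate number as a block (0.0447). The estimate was 0.12 with the GC and length correction (limma adjusted p = 0.124). SYVN1 shares 398 exonic bases with FAU on the same strand and 356 with MRPL49 on the other, so its reads are uncertain. HERPUD1, a membrane protein that organises the SYVN1 complex and that carries an ERSE-II match, had 10.5, 10.3 and 10.9 FPKM in the knockout and 9.11, 8.45 and 9.60 FPKM in the control. These did not overlap and did not pass (log2 fold change 0.20, limma adjusted p = 0.0769), and they passed without control 3 (0.00985) and with the GC and length correction (0.0381). SEL1L, the partner that holds SYVN1 in place, averaged 8.28 ± 0.655 FPKM in the knockout and 8.56 ± 0.276 FPKM in the control. SELENOS, which ties VCP to the membrane, averaged 13.6 ± 0.867 FPKM in the knockout and 13.7 ± 1.11 FPKM in the control. SEC61B, a subunit of the import channel, averaged 115 ± 1.72 FPKM in the knockout and 122 ± 24.3 FPKM in the control. The signal peptide peptidase HM13 averaged 19.6 ± 0.205 FPKM in the knockout and 18.8 ± 0.425 FPKM in the control.

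Of the 5 genes of glycan recognition, OS9 rose. OS9 (ENSG00000135506, chr12:57693955-57721557, plus strand) is a lectin that reads trimmed glycans and hands misfolded glycoproteins to SEL1L. It had 45.1, 48.1 and 47.2 FPKM in the knockout libraries, against 39.7, 40.7 and 40.3 FPKM in the controls. The controls were tightly grouped and lay below every knockout library (116% of control, log2 fold change 0.21, standard error 0.07, limma adjusted p = 0.0466). With the replicate number as a block the adjusted p was 0.0578, so the call was lost, as it was on the TPM scale (0.151) and when any of the knockout libraries, control 1 or control 2 was left out (0.0858 to 0.183). ERLEC1, the other lectin of this step, differed in the opposite direction with 6.58, 5.83 and 6.37 FPKM in the knockout and 7.17, 7.06 and 7.71 FPKM in the control. It did not pass (log2 fold change -0.20, limma adjusted p = 0.0913), and with the GC and length correction the direction turned, at 0.0185. The mannosidases EDEM1, EDEM2 and EDEM3, which trim the glycans that the lectins read, had log2 fold changes of -0.09, 0.11 and -0.10 and did not pass.

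Of the 3 genes of extraction, NPLOC4 fell. NPLOC4 (ENSG00000182446, chr17:81556887-81648465, minus strand) forms with UFD1 the adaptor that lets VCP grip ubiquitinated chains. It had 13.3, 13.6 and 12.8 FPKM in the knockout libraries, against 18.1, 19.3 and 15.3 FPKM in the controls. The knockout libraries lay close together and below all controls, at 75.3% of the control mean (log2 fold change -0.38, standard error 0.09, limma adjusted p = 0.0181). Leaving out any knockout library or control 1 ended the call (adjusted p = 0.0614 to 0.0801). UFD1 had 50.4, 50.7 and 49.2 FPKM in the knockout and 52.0, 53.3 and 62.4 FPKM in the control, and did not pass (log2 fold change -0.15, limma adjusted p = 0.215). VCP averaged 41.4 ± 0.953 FPKM in the knockout and 41.9 ± 0.953 FPKM in the control, and its 95% interval for the log2 fold change ran from -0.16 to 0.13.

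Of the 8 sensors, proteases and factors, 7 were tested, and XBP1 and CREB3L2 rose. XBP1 (ENSG00000100219, chr22:28794555-28800597, minus strand) encodes the factor that IRE1 activates by splicing, and its promoter carries the ERSE printed above. It had 65.2, 60.8 and 64.4 FPKM in the knockout libraries, against 46.2, 45.5 and 55.5 FPKM in the controls. The groups did not overlap, and the means were 63.5 ± 2.32 and 49.1 ± 5.56 FPKM (SD, n = 3 each), 129% of control. The log2 fold change of 0.37 (standard error 0.09, limma adjusted p = 0.0185) was 0.56 with the GC and length correction (adjusted p = 0.000355) and 0.61 with that correction and control 3 left out. The call was lost when any of the knockout libraries or control 1 was left out (adjusted p = 0.0631 to 0.0789). The annotation lists a pseudogene copy, XBP1P1, with which reads may be shared.

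CREB3L2 (ENSG00000182158, chr7:137874979-138002067, minus strand) encodes a membrane-bound factor of the ATF6 type that is released by cleavage in the Golgi and is known from mice for its role in secretion by cartilage cells. It had 3.33, 3.24 and 3.15 FPKM in the knockout libraries, against 2.60, 2.56 and 1.85 FPKM in the controls. The groups did not overlap at this low level, and control 3 was the lowest (139% of control, log2 fold change 0.35, standard error 0.10, limma adjusted p = 0.0301). Leaving out any knockout library ended the call (adjusted p = 0.0799 to 0.116), as did testing without a filter on low values (0.0666) and the TPM scale (0.0571), and array weights gave 0.23. The proteases that cleave ATF6 and its relatives in the Golgi are MBTPS1 and MBTPS2. MBTPS2 had 5.22, 4.88 and 4.66 FPKM in the knockout and 5.79, 5.52 and 5.60 FPKM in the control, without overlap, and did not pass (log2 fold change -0.17, limma adjusted p = 0.123). The estimate was 0.00137 with the GC and length correction. MBTPS1 averaged 18.1 ± 0.830 FPKM in the knockout and 18.4 ± 1.62 FPKM in the control. WFS1, an ER membrane protein that restrains ATF6, averaged 1.59 ± 0.206 FPKM in the knockout and 1.47 ± 0.184 FPKM in the control.

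Of the sensors, ATF6 and EIF2AK3 did not pass and ERN1 was below the filter. ATF6 had 5.81, 5.41 and 5.47 FPKM in the knockout and 6.09, 6.30 and 5.19 FPKM in the control (log2 fold change -0.06, 95% interval -0.25 to 0.13). The kinase EIF2AK3, which slows translation by phosphorylating eIF2-alpha, had 4.27, 4.12 and 4.49 FPKM in the knockout and 3.97, 4.39 and 4.11 FPKM in the control (log2 fold change 0.04, 95% interval -0.12 to 0.20). ERN1 had 0.595, 0.589 and 0.607 FPKM in the knockout and 0.722, 0.817 and 0.617 FPKM in the control. Its groups did not overlap, but control 3 lay just above the knockout libraries, and it was below the filter. In the fit without a filter on low values its log2 fold change was -0.10 (limma adjusted p = 0.173).

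**Figure D4:**
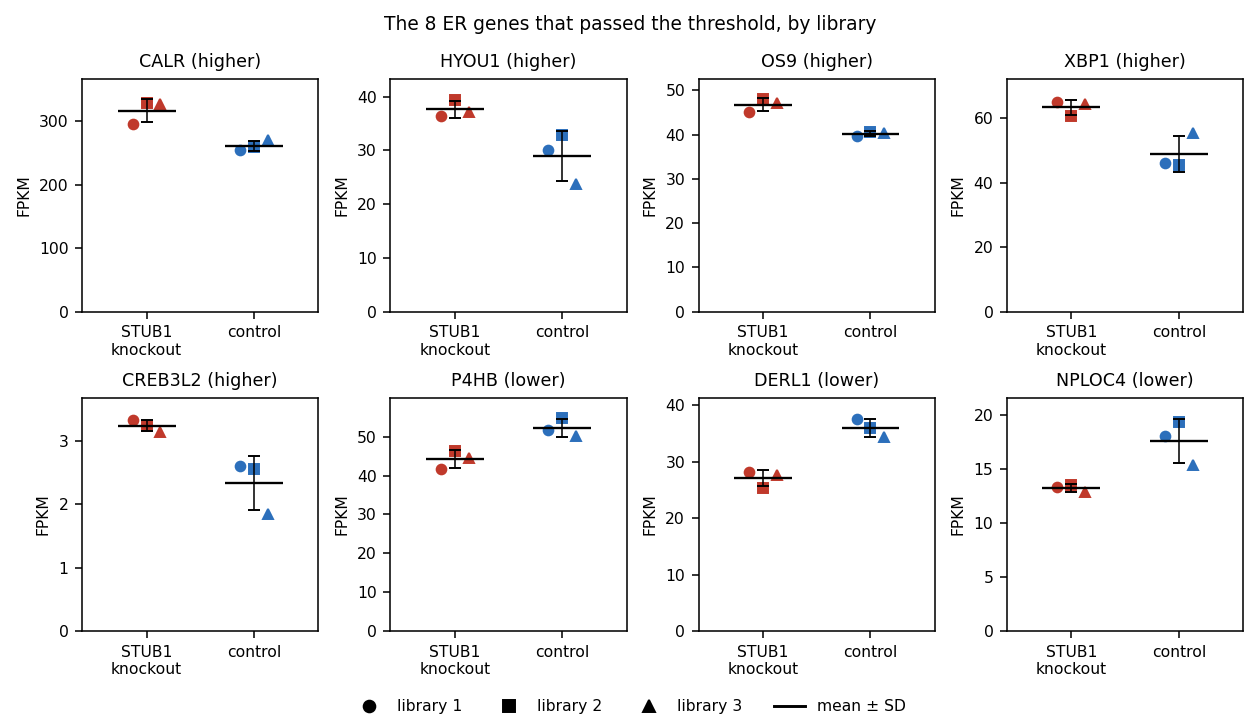
FPKM (vertical axes from 0) of the 8 ER genes that passed the threshold, in 3 STUB1 knockout libraries (left, red) and 3 controls (right, blue), with the mean and SD. The groups do not overlap in any panel, and control 3 (triangle) is the lowest control for HYOU1, CREB3L2, P4HB, DERL1 and NPLOC4 and the highest for CALR and XBP1.

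The 9 genes with an ERSE or ERSE-II match and the 25 tested genes whose windows had neither are described by counts, medians and ranges. The 25 include TXNDC5 and VCP, which had a UPRE match. Of the 9, 3 were higher (CALR, HYOU1 and XBP1), 0 were lower and 6 did not pass, with a median log2 fold change of 0.13 and a range of -0.26 to 0.38. Of the 25, 2 were higher (OS9 and CREB3L2), 2 were lower (P4HB and NPLOC4) and 21 did not pass, with a median of -0.05 and a range of -0.38 to 0.35. Over all tested genes, 9.58% were higher and 13.3% lower. On the TPM scale XBP1 was the sole higher call of the 9, since CALR and HYOU1 lost theirs. Of the further ER genes listed below, HSPA5, HSP90B1 and SERP1 had an ERSE match, and none of them passed. Their log2 fold changes were 0.09, -0.02 and -0.20, and SERP1 was lower in the knockout without overlap. The split was made with earlier results known and was not tested.

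All 3 genes that fell lay in parts of the genome where most neighbouring genes were lower too. P4HB and NPLOC4 lie close together near the end of the long arm of chromosome 17, and each had 140 tested neighbours within 10 Mb, largely the same ones, with a median log2 fold change of -0.38. Of these 140 neighbours, 95 were lower and 0 were higher. DERL1 on chromosome 8 had 40 tested neighbours with a median of -0.37, of which 28 were lower and 1 was higher. Thus NPLOC4 at -0.38 and DERL1 at -0.40 lay near their neighbours' medians, and P4HB at -0.24 lay above it. MBTPS2 on the X chromosome had 40 neighbours with a median of -0.30, and 22 of them were lower. ERN1, below the filter, also lies on chromosome 17, and 54 of its 81 neighbours were lower (median -0.37).

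Around the genes that rose, most neighbours were not called in either direction. The neighbour medians were 0.11 for CALR and XBP1, 0.05 for HYOU1 and OS9 and -0.02 for CREB3L2. Higher neighbours outnumbered lower ones for each of these genes. CALR had 28 higher and 5 lower of 308, and XBP1 had 31 and 1 of 163. HYOU1 had 11 and 4 of 92, OS9 had 26 and 11 of 190, and CREB3L2 had 7 and 5 of 61. Over all tested genes, 9.58% were higher and 13.3% lower. Among the 39 tested ER genes, the 4 whose neighbours had a median below -0.2 (P4HB, DERL1, NPLOC4 and MBTPS2) counted 0 higher and 3 lower, and the other 35 counted 5 higher and 0 lower. Over all 11177 tested genes with coordinates, 894 (8.0%) lay in such windows, of which 63.2% were lower and 1.01% higher. Of the other 10283, 9.02% were lower and 10.4% higher. This cutoff was chosen after the values were seen, and the part of chromosomal position in the 3 falls was not tested.

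**Figure D5:**
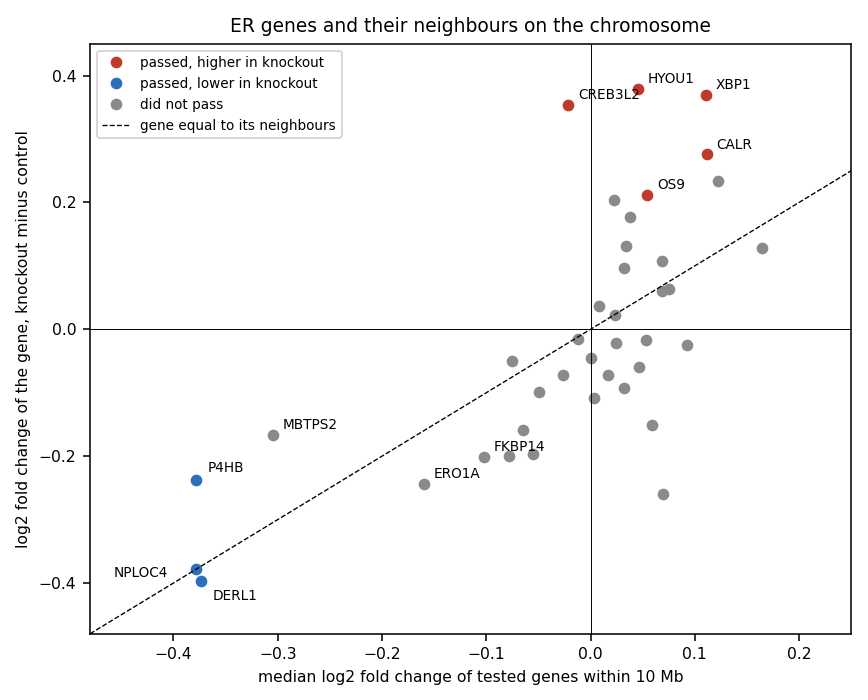
Log2 fold change of each tested ER gene (knockout minus control, vertical axis) against the median of tested genes within 10 Mb of it (horizontal axis); the dashed line marks equality. P4HB, NPLOC4 and DERL1 sit at the lower left with neighbour medians of -0.38 and -0.37, while the 5 genes that rose have neighbour medians between -0.02 and 0.11.

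A list of 80 further ER genes, drawn up by role, gave 2 higher and 13 lower among 75 tested, and 60 did not pass. The called shares were 2.67% higher and 17.3% lower, beside 9.58% and 13.3% of all tested genes. With the GC and length correction the split was 10 higher and 7 lower (13.3% and 9.33%, beside 14.0% and 14.7% of all genes tested that way), so its direction depended on that choice. HSPA5 (BiP), the chief HSP70 of the ER and the usual readout of the unfolded protein response, had 331, 306 and 327 FPKM in the knockout and 295, 287 and 322 FPKM in the control. These overlapped (log2 fold change 0.09, limma adjusted p = 0.424). HSPA5 passed as higher without control 3 (log2 fold change 0.14, limma adjusted p = 0.0467) and with the GC and length correction (0.18, 0.0392), but not with that correction and the replicate block (0.0731). HSP90B1 (GRP94), the HSP90 of the ER, had 190, 174 and 190 FPKM in the knockout and 183, 180 and 199 FPKM in the control, with a log2 fold change of -0.02. DNAJB9, a cochaperone induced through XBP1, had 2.20, 1.89 and 2.23 FPKM in the knockout and 2.64, 1.70 and 2.54 FPKM in the control. DDIT3 (CHOP), the factor downstream of PERK and ATF4, had 18.1, 17.5 and 16.8 FPKM in the knockout and 17.2, 17.1 and 22.2 FPKM in the control. Neither of the last 2 passed (log2 fold changes -0.07 and -0.09). HSPA5, HSP90B1 and SERP1 were the genes of this list with an ERSE match.

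The 6 genes of that list with the smallest p were lower, and the next 2, FKBP9 and MARCHF6, were higher (limma adjusted p = 0.00688 and 0.0073). UBE2J1, the membrane-anchored E2 enzyme that works with SYVN1, had 13.9, 12.2 and 13.2 FPKM in the knockout and 22.4, 21.0 and 22.1 FPKM in the control, 60.05% of control (log2 fold change -0.70, limma adjusted p = 0.000512). SEC63, a translocon partner that recruits HSPA5, had 13.9, 12.9 and 14.1 FPKM in the knockout and 20.8, 20.4 and 19.1 FPKM in the control (log2 fold change -0.53, limma adjusted p = 0.00156). RNF139, an ERAD ubiquitin ligase, had 10.7, 9.96 and 10.5 FPKM in the knockout and 14.6, 13.5 and 14.3 FPKM in the control (log2 fold change -0.41, limma adjusted p = 0.0045). In none of these 3 did the groups overlap. PRDX4, the ER peroxiredoxin, had 38.2, 39.4 and 40.4 FPKM in the knockout and 53.3, 54.8 and 68.5 FPKM in the control (log2 fold change -0.56, limma adjusted p = 0.0047). FAM8A1, a cofactor of SYVN1, had 3.51, 3.11 and 3.05 FPKM in the knockout and 4.69, 4.97 and 4.34 FPKM in the control (log2 fold change -0.43, limma adjusted p = 0.0058). TMX1, a transmembrane thioredoxin, had 20.3, 18.2 and 21.1 FPKM in the knockout and 27.9, 25.4 and 30.4 FPKM in the control (log2 fold change -0.47, limma adjusted p = 0.00682). UBE2J1, SEC63, RNF139 and PRDX4 were the 4 genes of the list with a neighbour median below -0.2 (-0.58, -0.53, -0.37 and -0.28), and all 4 were lower. Of the other 71, 2 were higher and 9 were lower. FKBP9 and MARCHF6 stood at 135% and 130% of control. MARCHF6 had 30 tested neighbours with a median of 0.22, of which 11 were higher and 0 were lower. FKBP9 had 65 with a median of -0.12, of which 2 were higher and 12 were lower.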

How the data were processed

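RNA was measured in 6 HaCaT libraries (3 STUB1 knockout, 3 control) after oligo(dT) selection with a TruSeq kit, per the labels' protocols. The authors deposited FPKM with 3 decimals for 20014 Ensembl genes. The submitters' processing notes list HISAT2 2.0.5 and featureCounts 1.6.3, besides Trimmomatic 0.36, Cufflinks, edgeR 3.6.3 and the build GRCh38.p13, without saying what each did. The sources used here do not give the annotation release or the strand setting, so reads of overlapping genes cannot be told apart.

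Values were tested as log2(FPKM + 1), a scale that understates changes of low genes, with limma 3.58.1 (R 4.3.3): a model with genotype alone, an intensity trend, Benjamini-Hochberg adjustment at 0.05, and genes with a mean of at least 1 FPKM. FPKM are not counts, and no count test was run. Between 59.8% and 64.1% of 362 to 396 low values a library came within 0.15 of whole reads (a flat spread gives 30%), so library sizes are only estimated and no reads were recovered. The fit was checked on simulated data.

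Gene names were taken from an identifier table (19991 genes) and GENCODE 29 (23 genes), which also gave coordinates, exonic length and GC content on GRCh38. Promoter windows came from RefSeq. All members are named by role. Libraries' values are given for members that passed and for the member with the smallest p among the rest of each role group. Of the companion list, HSPA5, HSP90B1, DNAJB9, DDIT3 and the 6 with the smallest p are described. SDF2L1, MANF, CRELD2, PDIA4, HERPUD1, ATF6, EIF2AK3 and ERN1 were added after their values were seen. A marker gene is not reported here. Members and lists were chosen with earlier results of these data known.

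Same-numbered libraries deviated together from their group means (correlations 0.375, 0.150 and 0.188). No label states a shared day, so whether the numbers pair the libraries is not known. The main fit left the numbers out, and alternatives used them as a block. Alternatives were 2 other pseudocounts, no filter and a 5 FPKM filter, TPM, median centring, a replicate block, array weights (whose iteration stopped before its tolerance), no trend, corrections for GC content and length (loess span 0.3), and each library left out. The correction without control 3, was added after seeing the data.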

Additional observations from a re-analysis of the deposited data

How the results depend on the processing

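The DERL1 call held under all 18 alternatives, and no called gene changed sign. Of 894 values for the 39 tested ER genes, 10 companions and STUB1, 753 kept their direction and side of the threshold, 39 lost a call, 37 gained one without a change of sign, and 65 changed sign, all in genes that had not passed. Of these 65, 3 passed in their new direction (MANF, SEC61B and HSP90B1, with the GC and length correction and control 3 left out). Of the 31 ER genes that had not passed, 17 passed under at least 1 alternative. The cause of these changes was not tested. Fits with a library left out also have fewer degrees of freedom, and the part of this was not tested.

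The ER genes called higher were 5, and 1 on the TPM scale, 9 with array weights, 12 with the GC and length correction and control 3 left out, and 0 to 9 with a library left out. Those called lower were 3, and 10, 6 and 1 to 5 under array weights, that correction without control 3, and a left-out library. With array weights 23.1% of the ER genes were higher and 25.6% lower, beside 27.9% and 29.3% of all tested genes. With the correction and control 3 left out, 30.8% were higher and 15.4% lower, beside 23.1% and 22.0% of all genes. On the TPM scale 2.56% were higher, beside 5.92% of all genes. The 9 higher calls among left-out libraries came without control 3 (23.1%, beside 18.7% of all genes). The 0 came on leaving out each knockout library in turn, when 3.47% to 4.66% of all genes were higher. Companions called higher were 2, and 22 with array weights, 10 with the GC and length correction, 6 with it and the replicate block, 18 with it and control 3 left out, and 1 to 10 with a library left out. Companions called lower were 13, and 24, 7, 7 and 6 to 16 under array weights, the correction, the correction with block, and a left-out library. With array weights 29.3% of companions were higher and 32.0% lower, beside the 27.9% and 29.3% of all genes. All genes called higher were 1079, and 706 at a 5 FPKM filter, 667 on the TPM scale, 3139 with array weights, 2583 with the correction and control 3 left out, and 391 to 2103 with a library left out. All genes called lower were 1500, and 3298 with array weights, 2461 with the correction and control 3 left out, and 639 to 2418 with a library left out. With the replicate block alone 5 and 3 ER genes were called, OS9 lost and SYVN1 gained its call, and 1368 and 1683 of all genes were called. The block changed no other call among these 50 genes. Added to the GC and length correction, it gave SDF2L1 a call as lower and ended the calls of OS9 and HSPA5.

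The log2 fold changes that changed sign were, with the GC and length correction (the same values with the replicate block), ERO1B 0.134, MANF 0.0296, SEL1L 0.0501, SELENOS 0.0414, SEC61B 0.054, HM13 -0.0283, EDEM3 0.0289, ERLEC1 0.0185, ATF6 0.0152, MBTPS2 0.00137, WFS1 -0.0604, HSP90B1 0.109, DNAJB9 0.144 and DDIT3 0.0176. With that correction and control 3 left out they were ERO1B 0.14, MANF 0.154, SEL1L 0.0591, DERL2 0.0461, SELENOS 0.0813, SEC61B 0.123, EDEM3 0.00378, MBTPS2 0.0063, WFS1 -0.093, HSP90B1 0.15, DNAJB9 0.153 and DDIT3 0.0505. On the TPM scale it was PDIA3 -0.0218. With array weights they were CANX -0.00165, ERO1B 0.034, SDF2L1 0.0909, MANF 0.111, SELENOS 0.0383, SEC61B 0.0921 and HSP90B1 0.0492. Among fits with a library left out, the ranges that crossed 0 were CANX -0.0223 to 0.171, PDIA3 -0.0114 to 0.0842, SDF2L1 -0.479 to 0.0394, MANF -0.132 to 0.149, SEL1L -0.0845 to 0.0135, SELENOS -0.0733 to 0.0363, SEC61B -0.157 to 0.0847, VCP -0.035 to 0.00161, MBTPS1 -0.0887 to 0.0297, HSP90B1 -0.0471 to 0.0276, DNAJB9 -0.211 to 0.0066 and DDIT3 -0.152 to 0.0251.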
